A study of Mus musculus with 4 samples.

Results

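The ciliated apical cortexes of control mouse ependymal cells are described here through the 2 libraries labelled Ctrl-i, out of 4 libraries in the series, and the other 2 libraries received a different siRNA and were not used. Both libraries were chosen by their label alone. The cells (mEPCs) were raised in culture from the telencephalon of C57BL/6 pups of either sex soon after birth, with neurons and oligodendrocytes shaken off early in culture, and serum was withdrawn to start the growth of multicilia. Both cultures received 40 pmol of Ctrl-i, a control siRNA, at intervals of 3 days, and multicilia were harvested at day 10 of serum starvation, once in Exp.1 and once in Exp.2. By the study's methods, shaking in a buffer with a mild detergent released apical cortexes that still carried their multicilia and basal bodies, and these were collected from an iodixanol gradient. By this method the preparation holds ciliary shafts, basal bodies and the cell cortex below them. The study's immunoblots found little cytosolic or nuclear protein in it, and RNA carried over from cell bodies was not measured here. No whole-cell library was analysed here that would show which RNAs are enriched over the cell body. The study calls its experiments independent, and the labels do not say whether they came from separate litters, so that a spread over n = 2 may be technical in part.

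A motile cilium is a long outgrowth of the cell surface built on an axoneme, a ring of microtubule doublets around a central pair. Dynein arms slide the doublets, nexin links and radial spokes coordinate the sliding, proteins inside the doublets stabilize them, and intraflagellar transport (IFT) trains carry building blocks to the tip. Ependymal cells line the brain ventricles, carry tufts of such cilia and move cerebrospinal fluid, and they share many genes with astrocytes because both descend from radial glia.

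The table gives FPKM, fragments per transcript length and per library size, for 12515 transcript rows under 10213 gene symbols, and rows that share a symbol were summed. A share of the FPKM sum is close to a share of transcript molecules, not of sequenced fragments. For genes with 1 annotated transcript, FPKM times transcript length came in equal steps, and 86.8% of 600 low values in Exp.1 and 88.4% of 584 in Exp.2 were whole multiples of the step within 0.1. These steps stand for single fragments, and by them the table holds about 836368 fragments in Exp.1 and 948819 in Exp.2. The genes resting on fewer than 10 fragments numbered 2658 in Exp.1 and 2662 in Exp.2, and those with 100 or more numbered 1384 and 1389. No row is at 0 in either library, the lowest value being 0.01 FPKM in 96 rows of Exp.1 and 104 rows of Exp.2, and a gene without a row cannot be read as absent RNA.

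Ribosomal RNA of mitochondria was the largest part of both libraries. mt-Rnr1, the small mitochondrial rRNA, had 82075.5 FPKM in Exp.1 and 113417 FPKM in Exp.2, and mt-Rnr2, the large one, had 77797.6 and 108307 FPKM. With mt-Nd3, a subunit of respiratory complex I, at 4072.83 and 4695.54 FPKM, these were the 3 mitochondrially encoded RNAs with a row, out of 37 genes annotated on the mitochondrial genome. Together they took 28.1% of the FPKM in Exp.1 and 38.4% in Exp.2, or 21.8% and 30.1% of the fragments. All shares below were recomputed without these 3 RNAs, which left 419930 FPKM in Exp.1 and 363462 FPKM in Exp.2.

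The remaining RNA was concentrated in few genes. The most abundant 10 genes were the same 10 in both libraries and held 18.6% of the FPKM in Exp.1 and 17.8% in Exp.2. The first 30 held 25.8% and 24.9%, and 25 of them were shared. It took 296 genes in Exp.1 and 336 in Exp.2 to reach 50% of the FPKM, and 3453 and 3586 genes to reach 90%. Most of the leading transcripts were short: the row with the most FPKM was under 1000 bases for 8 of the 10 most abundant genes and 50 of the first 100, against 11.9% of all 10189 genes with a known length.

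Dbi, which encodes an acyl-CoA binding protein, ranked first with 14584.5 FPKM in Exp.1 and 11136.4 FPKM in Exp.2, or 3.47% and 3.06% of the FPKM. The metallothioneins Mt1, Mt2 and Mt3, the ferritin chains Fth1 and Ftl1 that store iron, the lipid carrier Apoe and the intermediate filament protein Vim were also among the first 10. Fth1 took 1.54% in Exp.1 and 1.84% in Exp.2, and Apoe took 1.34% and 1.16%. Behind them came Eef1a1, which delivers aminoacyl-tRNA to the ribosome, the carboxypeptidase Cpe, the actin-binding peptide Tmsb4x, and Gfap, the filament protein of astrocytes. Of the first 30 genes by mean share, the paternally expressed proteolipid gene Nnat differed most between the libraries, with 0.149% in Exp.1 and 0.352% in Exp.2.

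**Figure D1:**
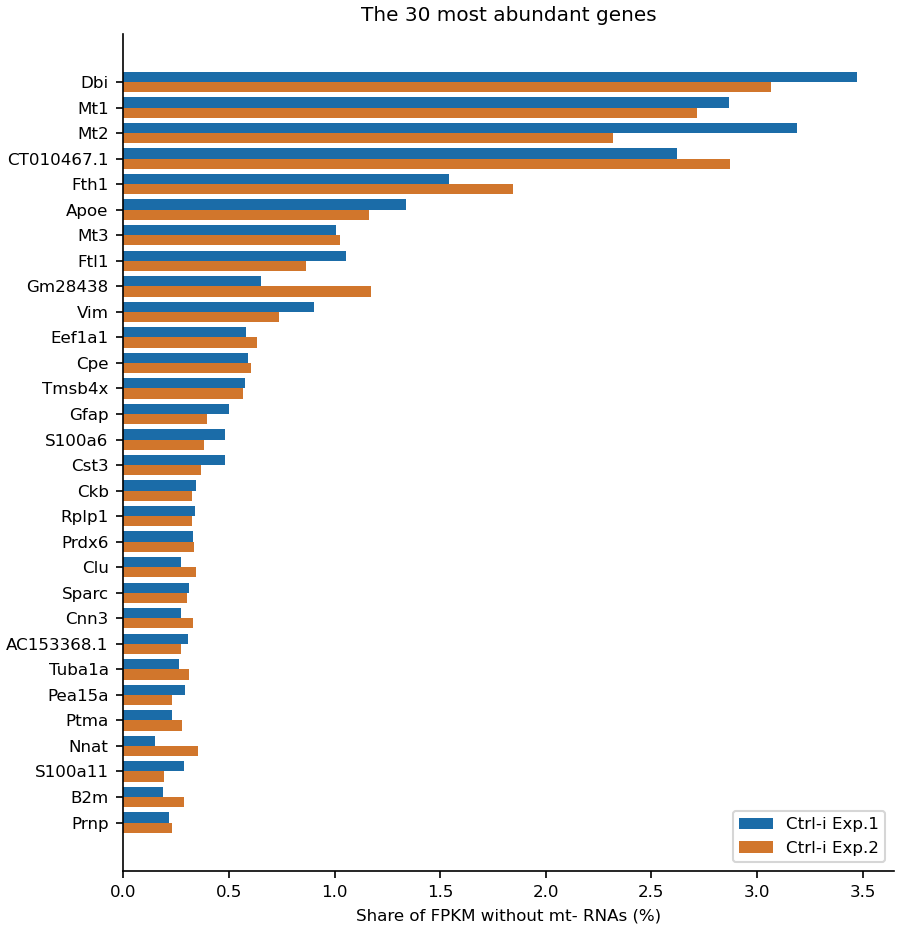
Share of the FPKM without mitochondrially encoded RNAs (%, horizontal axis) for the 30 genes with the highest mean share, with 1 bar for Ctrl-i Exp.1 and 1 for Ctrl-i Exp.2. Dbi reached 3.47% and 3.06%, and most pairs of bars were of similar length, with Gm28438 and Nnat longer in Exp.2.

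A pair of entries in the first 10 are not ordinary mRNAs. CT010467.1, annotated as rRNA on chromosome 17 from 39846353 to 39848827 of GRCm38, had 11005 FPKM in Exp.1 and 10438.7 FPKM in Exp.2 and held more fragments than any other gene outside the mitochondrial genome, 18249 and 19565. Gm28438, an unprocessed pseudogene on chromosome 1 from 24612775 to 24613119 on the minus strand, had 2737.75 FPKM in Exp.1 and 4261.88 FPKM in Exp.2. Its 345 bases matched mt-Nd3, which lies on the mitochondrial genome from 9459 to 9806, at 344 positions, and the single difference is T3C, counted from the first base with the mt-Nd3 base named first. The first 60 bases of both transcripts are printed to show how little tells them apart, with the differing base in capitals.

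Gm28438: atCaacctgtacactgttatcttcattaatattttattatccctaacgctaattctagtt
mt-Nd3: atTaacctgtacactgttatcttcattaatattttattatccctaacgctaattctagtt

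Of the 31-base words of the Gm28438 transcript, 99.0% also occur in mt-Nd3, so few positions can tell fragments of the 2 genes apart. With 3 further mitochondrial pseudogenes that share words with mt-Nd2 (Gm13339), mt-Co1 (Gm13340) and mt-Co2 (Gm13341), such nuclear copies held 0.822% of the FPKM in Exp.1 and 1.40% in Exp.2, and so were higher in the library with more mitochondrial rRNA. Predicted and unnamed genes held 8.43% of the FPKM in Exp.1 and 9.31% in Exp.2. Of the 37 that have an annotated transcript and average 100 FPKM or more, 12 shared over 90% of their words with other genes, mostly ribosomal proteins (Rps12-ps3 with Rps12, Gm7536 with Rpl27a), and 11 shared under 10%, such as 1500015O10Rik with 0% at 684.91 FPKM in Exp.1 and 439.5 FPKM in Exp.2.

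The metallothioneins, small cysteine-rich proteins that bind zinc and copper, formed the largest named class with only 3 genes. They held 7.06% of the FPKM in Exp.1 and 6.06% in Exp.2 (6.56% ± 0.71, SD, n = 2). Mt1 had 12036.8 FPKM in Exp.1 and 9865.81 FPKM in Exp.2, Mt2 had 13388.2 and 8417.97 FPKM, and Mt3, the form best known from brain, had 4224.31 and 3734.9 FPKM. The genes are neighbours on chromosome 8 of GRCm38, with Mt3 from 94152607, Mt2 from 94172664 and Mt1 from 94179082, all on the plus strand. Being short, they made up 2.15% and 1.79% of the fragments in Exp.1 and Exp.2. Metal response elements share the core TGCNCNC, which the zinc-sensing factor MTF-1 is known to bind and which reads as GNGNGCA on the other strand. In the RefSeq windows from 250 bases before to 50 after each annotated start (GRCm38.p6), this core was found 3 times for Mt1, 6 times for Mt2 and 3 times for Mt3. It is common, since 64.3% of the windows of 7768 genes in the table and 53.6% of all 27025 hold it at least once, with a mean of 1.14 and 0.88 matches. The Mt1 and Mt2 windows, chr8:94178839-94179138 and chr8:94172368-94172667, both on the plus strand, are printed because these 2 genes followed Dbi in mean share, with the core in capitals on either strand.

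Mt1: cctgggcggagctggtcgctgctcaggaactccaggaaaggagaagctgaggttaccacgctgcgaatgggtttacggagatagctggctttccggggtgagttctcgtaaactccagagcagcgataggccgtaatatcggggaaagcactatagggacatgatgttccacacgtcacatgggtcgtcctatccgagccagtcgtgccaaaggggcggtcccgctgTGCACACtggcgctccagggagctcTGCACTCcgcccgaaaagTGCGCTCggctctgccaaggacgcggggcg
Mt2: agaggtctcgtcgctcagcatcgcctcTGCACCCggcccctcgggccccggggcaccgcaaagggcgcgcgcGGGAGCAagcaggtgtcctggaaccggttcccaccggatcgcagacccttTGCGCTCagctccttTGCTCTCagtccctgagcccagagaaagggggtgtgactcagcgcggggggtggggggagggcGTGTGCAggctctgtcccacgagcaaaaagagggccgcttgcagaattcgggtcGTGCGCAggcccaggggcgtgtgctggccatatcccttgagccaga

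Functional classes other than the mitochondrially encoded RNAs were 35 in number and held 55.8% of the FPKM in Exp.1 and 54.0% in Exp.2, in 2128 genes. After the metallothioneins came the cytosolic ribosomal proteins, with 87 genes and 6.39% of the FPKM in Exp.1 and 5.22% in Exp.2. Genes of lipid binding and metabolism held 5.54% and 4.94%, of which Dbi was the main part. The respiratory chain and ATP synthase, encoded in the nucleus, held 4.11% in Exp.1 and 3.26% in Exp.2 in 81 genes. Ferritins and iron handling held 2.60% and 2.71%, and the actin cytoskeleton held 2.37% and 2.45%. The order of the first 6 classes, leaving out the predicted and unnamed genes, was the same in both libraries.

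**Figure D2:**
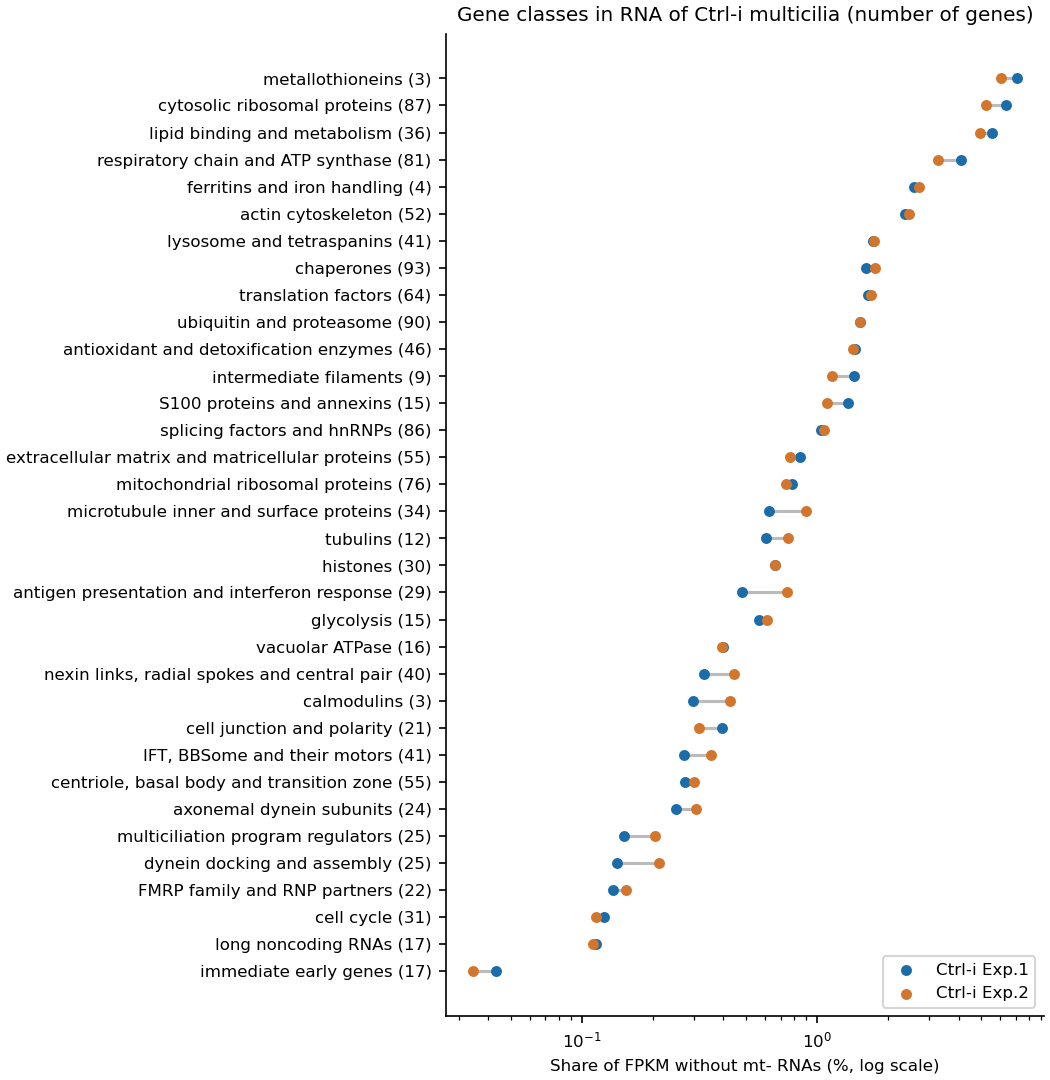
Share of the FPKM without mitochondrially encoded RNAs (%, log axis) in each functional class other than the predicted and unnamed genes, with the number of measured genes in parentheses and 1 point for each Ctrl-i library. Metallothioneins led with 7.06% in Exp.1 and 6.06% in Exp.2, and the ciliary classes lay between 0.141% and 0.894%, all with the Exp.2 point to the right.

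Genes of the cilium itself took a small part. The 5 classes of the axoneme and its transport (dynein subunits, dynein docking and assembly, nexin links with spokes and central pair, microtubule inner and surface proteins, and IFT with the BBSome) had 164 measured genes and held 1.62% of the FPKM in Exp.1 and 2.21% in Exp.2 (1.91% ± 0.42, SD, n = 2). Their median gene had a mean of 20.7 FPKM, against 9.23 FPKM for all 10210 genes. The share by fragments was 1.48% in Exp.1 and 2.01% in Exp.2.

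Within the doublets, Meig1, which mouse sperm need for their flagella, stood first of the 34 measured inner and surface proteins with 776.97 FPKM in Exp.1 and 828.3 FPKM in Exp.2. Tppp3, a tubulin polymerization protein, had 223.62 FPKM in Exp.1 and 316.47 FPKM in Exp.2. Cfap126, also called Flattop, had 161.86 and 268.42 FPKM, and Enkur, a doublet inner protein, had 168.39 and 188.92 FPKM. The class as a whole held 0.623% of the FPKM in Exp.1 and 0.894% in Exp.2, and it was the largest of the 5 ciliary classes.

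Radial spokes, nexin links and the central pair had 40 measured genes. Nme5, a spoke protein, had 320.29 FPKM in Exp.1 and 281.69 FPKM in Exp.2, and Rsph1, a spoke head protein, had 230.88 and 276.19 FPKM. Rsph4a, another spoke head protein, had 37.27 FPKM in Exp.1 and 60.25 FPKM in Exp.2. Large central pair proteins gave low values, with Hydin at 2.05 and 3.06 FPKM, resting on 29 and 49 fragments. Spag6l, a central pair gene, had 48.18 FPKM in Exp.1 and 98.55 FPKM in Exp.2.

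Among 24 dynein subunit genes, the pseudogene Dynlt1-ps1 included, the light chains led and the heavy chains came last. Dynlrb2 had 464.2 FPKM in Exp.1 and 518.21 FPKM in Exp.2, and Dynll1 had 240.05 and 251.58 FPKM. Dynll1 and the Dynlt1 genes also serve cytoplasmic dynein, so the values of this class are not those of the axoneme alone. Nor do these data show that Dynlrb2 RNA serves the axoneme only. Dynlrb2 made up 45.4% of the class. Dnah9 and Dnah5, heavy chains of the outer arms, had 7.64 and 2.43 FPKM in Exp.1, with 8.26 and 3.53 FPKM in Exp.2. Ccdc39, which sets the repeat length of the axoneme, had 27.25 FPKM in Exp.1 and 41.52 FPKM in Exp.2, and Efcab1, a dynein docking protein, had 76.01 and 118.62 FPKM.

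IFT and BBSome genes were narrower in range. Ift20, which links the train to the Golgi, led 41 measured genes with 95.25 FPKM in Exp.1 and 96.23 FPKM in Exp.2, and Ift81, a subunit that binds tubulin, had 21.08 and 26.83 FPKM. Dync2li1, of the retrograde motor, had 69.91 FPKM in Exp.1 and 102.79 FPKM in Exp.2. The class held 0.273% and 0.354% of the FPKM, and the largest member was 7.85% of it. Proteins of the centriole, basal body and transition zone had 55 measured genes and 0.273% in Exp.1 and 0.299% in Exp.2. Cetn2 had 145.68 and 152.35 FPKM, and the basal body gene Odf2 had 5.76 FPKM in Exp.1 and 7.68 FPKM in Exp.2. Cep290, of the transition zone, had 2.43 and 4.74 FPKM from 6 and 13 fragments. Its only row is annotated as a processed transcript, not as protein-coding, so the level of Cep290 mRNA is not given by it. The 95% Poisson intervals of counting error of that row, 0.897 to 5.32 FPKM in Exp.1 and 2.49 to 8.01 FPKM in Exp.2, overlap.

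RFX factors, which act with Foxj1 in the motile cilia program, bind sites whose arms hold GTTGCC. This word or its complement GGCAAC was found in the RefSeq window of 54 of 130 axoneme and IFT genes with an entry (41.5%), against 15.7% of 7768 genes in the table and 14.1% of all 27025. By class it was found for 14 of 26 inner and surface proteins, 16 of 33 spoke, link and central pair genes, 13 of 36 IFT and BBSome genes, 7 of 21 dynein subunits and 4 of 14 docking and assembly genes. Of the cytosolic ribosomal proteins 9.68% held it, and of the respiratory chain genes 15.4%. Both motifs were searched on their own, and their matches may overlap. The windows of Dynlrb2 (chr8:116504765-116505064, plus strand), Enkur (chr2:21205316-21205615, minus strand) and Iqcg (chr16:33056137-33056436, minus strand) are printed as 1 example each of a dynein subunit, a doublet inner protein and a nexin link protein, with the word in capitals, and were chosen because they hold it. Among other leading members of these classes, no match was found in the windows of Meig1, Cfap126, Cetn4, Rsph9 and Dnajb13. The same held for Ift20, Ift43, Ift46, Ccdc39, Dnali1, Dnal1 and Pih1d2, while Dynll1, Ift27, Spag6l and Tctex1d2 had a match. A match describes the sequence and does not show binding.

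Dynlrb2: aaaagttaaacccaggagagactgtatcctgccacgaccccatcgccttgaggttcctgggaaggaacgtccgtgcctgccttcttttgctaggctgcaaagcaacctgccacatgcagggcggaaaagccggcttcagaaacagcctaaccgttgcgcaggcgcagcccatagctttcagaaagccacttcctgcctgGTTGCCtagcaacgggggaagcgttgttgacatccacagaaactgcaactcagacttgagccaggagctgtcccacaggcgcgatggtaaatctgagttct
Enkur: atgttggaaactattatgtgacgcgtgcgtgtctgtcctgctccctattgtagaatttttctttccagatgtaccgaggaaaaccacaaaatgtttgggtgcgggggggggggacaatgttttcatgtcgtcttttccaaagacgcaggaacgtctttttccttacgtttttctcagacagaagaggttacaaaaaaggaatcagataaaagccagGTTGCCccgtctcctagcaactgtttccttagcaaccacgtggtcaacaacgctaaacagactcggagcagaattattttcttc
Iqcg: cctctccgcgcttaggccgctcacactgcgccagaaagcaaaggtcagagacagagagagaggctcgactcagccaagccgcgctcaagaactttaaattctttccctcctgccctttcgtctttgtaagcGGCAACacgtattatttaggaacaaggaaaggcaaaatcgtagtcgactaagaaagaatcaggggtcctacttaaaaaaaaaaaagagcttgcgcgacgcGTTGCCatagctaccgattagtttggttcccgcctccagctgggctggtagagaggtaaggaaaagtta

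Tubulins, the building blocks of the doublets and of all other microtubules, had 12 measured genes and held 0.608% of the FPKM in Exp.1 and 0.750% in Exp.2. Tuba1a had 1105.66 FPKM in Exp.1 and 1123.23 FPKM in Exp.2 and was 42.1% of the class. Tubb4b, the beta-tubulin of motile axonemes, had 443.13 and 560.96 FPKM, ahead of Tubb2b with 340.09 and 360.09 FPKM. Tubb3, the neuronal form, had 11.47 FPKM in Exp.1 and 8.45 FPKM in Exp.2. Of the 31-base words of Tuba1a 77.0% occur in other genes, Tuba1c sharing most, and for Tubb4b the share is 64.6%, so the split among these paralogs depends on how the counting placed shared fragments. The regulator Foxj1 had 188.76 FPKM in Exp.1 and 312.8 FPKM in Exp.2, with counting intervals of 172 to 207 FPKM and 292 to 335 FPKM that do not overlap. Myb had 15.51 and 15.07 FPKM, Rfx2 and Rfx3 had 14.29 and 10.5 FPKM in Exp.1, with 18.05 and 14.68 FPKM in Exp.2, and Mcidas, an early switch of the program, had 2.37 and 2.93 FPKM.

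Components of protein synthesis were abundant. Rplp1, of the ribosomal stalk, led the cytosolic ribosomal proteins with 1425.77 FPKM in Exp.1 and 1185.75 FPKM in Exp.2, and the median member had 233 FPKM. Translation factors had 64 measured genes and held 1.65% in Exp.1 and 1.70% in Exp.2, of which Eef1a1 with 2442.46 and 2306.09 FPKM made up 36.3%. Eif1, which helps to find the start codon, had 277.52 FPKM in Exp.1 and 207.17 FPKM in Exp.2, and Pabpc1, which binds poly(A) tails, had 237.71 and 174.04 FPKM. Chaperones held 1.61% and 1.77%, led by Hsp90aa1 with 527.49 FPKM in Exp.1 and 730.6 FPKM in Exp.2. Of 29 listed genes of the FMRP family and its RNP partners 22 had a row, and they held 0.136% in Exp.1 and 0.154% in Exp.2. Ncl, a nucleolar RNA-binding protein, had 142.65 and 103.44 FPKM, Caprin1, of mRNP granules, had 82.6 and 91.8 FPKM, and Fxr1, a paralog of Fmr1, had 40.62 FPKM in Exp.1 and 46.76 FPKM in Exp.2. The single Fmr1 row rests on 2 fragments in Exp.1 and 35 in Exp.2.

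Nearly all listed markers of ependymal and astroglial cells had a row, at very different levels. All 5 multiciliated markers were measured: Aqp4, the water channel of ependyma and astrocytes, had 175.54 FPKM in Exp.1 and 283.7 FPKM in Exp.2, and with Foxj1, Rsph1, Tuba1a and Tubb4b the 5 genes summed to 2143.97 and 2556.88 FPKM. Each was above at least 97% of all genes by mean FPKM. Of 10 genes of the ependymal surface 9 had a row, led by Cd24a, a surface glycoprotein, with 659.2 FPKM in Exp.1 and 1005.93 FPKM in Exp.2. At the low end of that list the cadherin Celsr2 had 5.87 and 2.25 FPKM, and Ank3, an ankyrin, had 0.17 FPKM in Exp.1 and 0.89 FPKM in Exp.2 from 2 and 9 fragments. All 16 astrocyte and radial glia markers had a row and summed to 4955.71 and 3766.81 FPKM, of which Gfap gave 2101.33 and 1439.69 FPKM. Aqp4 stands on both lists. The glutamate transporter Slc1a3 had 168.63 FPKM in Exp.1 and 138.97 FPKM in Exp.2, and Aldoc, the aldolase of brain, had 579.97 and 506.39 FPKM, while the bicarbonate transporter Slc4a4 had 6.19 FPKM in Exp.1 and 3.73 FPKM in Exp.2 and the receptor Ntsr2 had 4.49 and 9.33 FPKM. Since these are bulk libraries, fewer cells of a type and less RNA per cell cannot be told apart.

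Most markers of other cells had no row, but a few of those measured were well above the median gene. Of 16 neuronal markers 6 had a row and summed to 99.36 FPKM in Exp.1 and 90.43 FPKM in Exp.2, of which Map2 gave 65.18 and 74.5 FPKM, above 90% of all genes, and Rbfox3, Syt1 and Snap25 had none. Of 12 oligodendrocyte markers 5 had a row and summed to 100.26 and 106.64 FPKM, with Cnp at 56.21 and 64.01 FPKM, above 88% of all genes, and Sox10 and Mog had none. Mural cells had 4 of 7, nearly all of it Acta2 with 73.26 FPKM in Exp.1 and 55.92 FPKM in Exp.2, above 89% of all genes. Microglia had 1 of 12 (Trem2, 1.02 and 3.59 FPKM), endothelium 1 of 8 (Kdr, 0.56 and 1.00 FPKM), fibroblasts and meninges 2 of 8 with a sum of 1.16 and 0.71 FPKM, and blood 0 of 6. Choroid plexus had 2 of 7, Folr1 at 0.03 FPKM in Exp.1 and 13.96 FPKM in Exp.2 and Otx2 at 1.46 and 5.18 FPKM, and Ttr, its defining transcript, had no row.

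**Figure D3:**
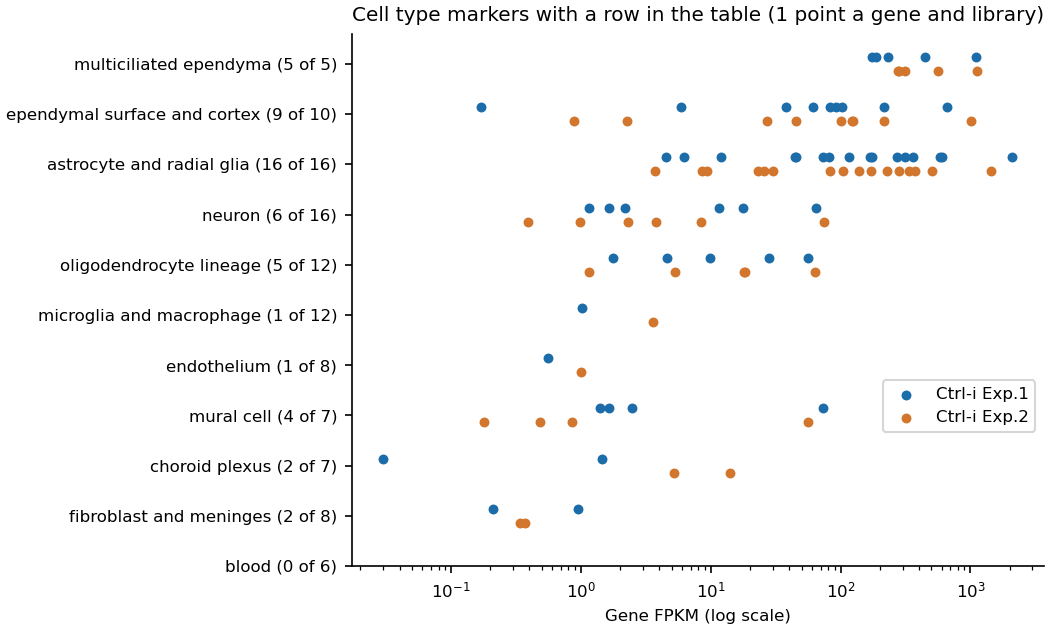
FPKM (log axis) of every marker gene with a row, 1 point for each gene and Ctrl-i library, grouped by cell type list with the number measured of the number listed. All 5 multiciliated and all 16 astroglial markers had a row, and blood had 0 of 6.

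Genes whose proteins served the study as markers of compartments differed in level. Gapdh, a cytosolic enzyme, had 11.84 FPKM in Exp.1 and 17.45 FPKM in Exp.2, but its only row is a retained-intron transcript and rests on 6 and 10 fragments, so the level of Gapdh mRNA is not given by it. The same holds more widely, as 275 of 9552 protein-coding symbols have no protein-coding row. Lmnb1, of the nuclear lamina, had 6.67 and 4.16 FPKM. Tomm20, of the mitochondrial outer membrane, had 62.18 FPKM in Exp.1 and 37.75 FPKM in Exp.2, and ranked 1397 of 10210 genes by mean share. The nuclear noncoding RNAs Neat1 and Malat1 had 89.18 and 35.49 FPKM in Exp.1, with 62.3 and 97.3 FPKM in Exp.2. By mean FPKM, Neat1 was above 91% and Malat1 above 90% of all genes. Rows annotated as protein-coding transcripts held 88.2% of the FPKM in Exp.1 and 87.4% in Exp.2, retained introns 1.60% and 1.63%, and long intergenic noncoding RNAs 0.558% and 0.499%.

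Both libraries agreed well for abundant genes and poorly for scarce ones. Over the 9673 genes with a mean of at least 1 FPKM, with the totals made equal and on log2(FPKM+1), Pearson's r was 0.919 and Spearman's rho 0.901. These are correlations across genes of 1 table, which are not independent replicates. Of these genes 66.7% lay within 1.5-fold of each other, and 1254 (13.0%) were over 2-fold apart, 580 higher in Exp.1 (6.00%) and 674 higher in Exp.2 (6.97%). Scarce genes differed most often: 43.9% of genes with under 5 fragments in the lower library were over 2-fold apart. With 10 to 30 fragments it was 8.84%, with 100 to 300 fragments 1.76%, and with 300 or more 1.62%, or 4 of 247 genes. Part of this gradient follows from the grouping, because a gene low in only 1 library falls among the scarce ones by differing. Grouped by mean FPKM, 18.6% were over 2-fold apart at 1 to 5 FPKM, 14.3% at 5 to 20 FPKM and 6.44% at 20 to 100 FPKM. At 100 to 1000 FPKM it was 4.97%, and at 1000 FPKM or more 0%. At the level of single rows, 2123 of 11720 were over 2-fold apart. Of the 1841 genes with several rows, 492 (26.7%) had a different leading row in each library, so that isoforms were less well fixed than genes.

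**Figure D4:**
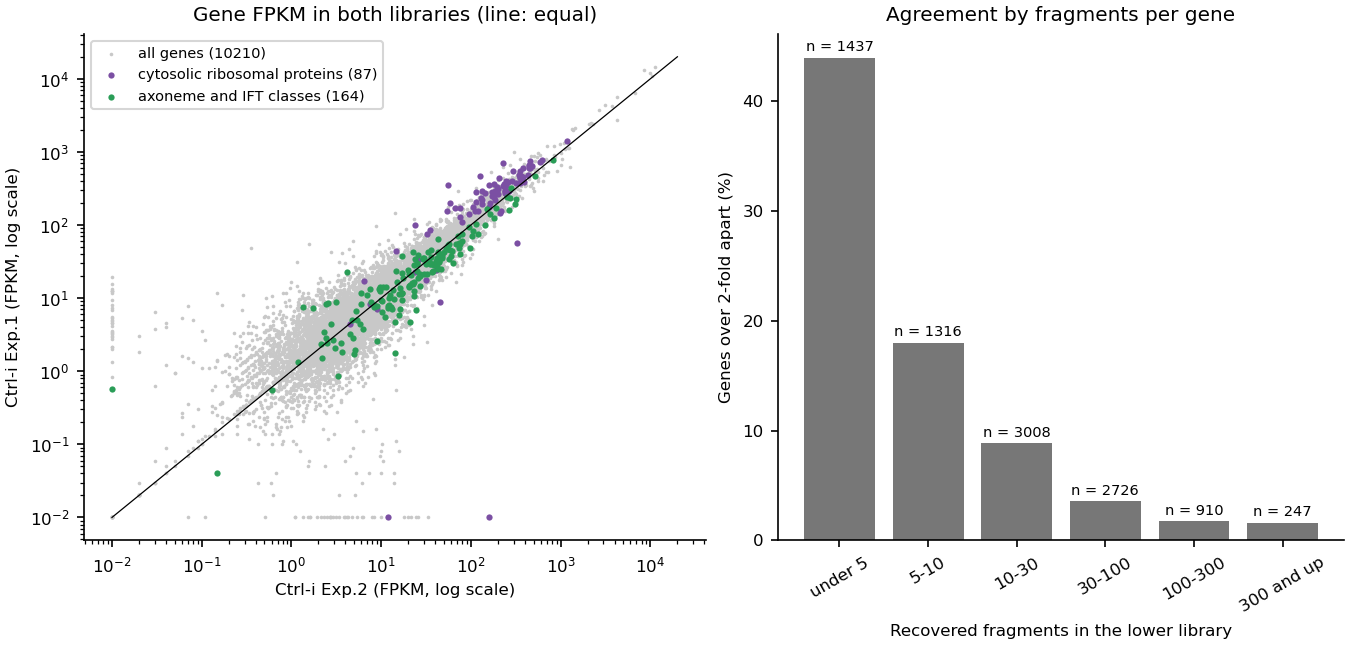
Left, FPKM of each gene in Ctrl-i Exp.1 (vertical, log axis) and Ctrl-i Exp.2 (horizontal, log axis), with cytosolic ribosomal proteins and the axoneme and IFT genes coloured and a line of equality. Right, the percentage of genes over 2-fold apart by the recovered fragments in the lower library, which was 43.9% under 5 fragments and 1.62% at 300 or more. A gene low in only 1 library falls in a low group, which adds to the gradient.

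The differences were not spread evenly over classes. Of 161 axoneme and IFT genes 127 were higher in Exp.2 (78.9%, against 55.6% of all genes), and the median log2 ratio of Exp.1 over Exp.2 was -0.47, against -0.06 for all genes. Restricted to genes with 30 or more fragments in both libraries, 85 of 97 were higher in Exp.2 (87.6%, against 2212 of all 3883), and 4 of the 97 were over 2-fold higher there, against 64 of the 3883. The shift was seen in each of the 5 classes, with medians of -0.68 for dynein docking and assembly, -0.59 for inner and surface proteins, -0.48 for spokes, links and central pair, -0.34 for IFT and BBSome and -0.29 for dynein subunits. It was small per gene, since 19 of the 161 were over 2-fold higher in Exp.2 (11.8%, against 6.97% of all genes) and 6 over 2-fold higher in Exp.1 (3.73%, against 6.00%). All 5 multiciliated markers lay in the same direction, of which Rsph1 is also among the 161 genes and Aqp4 is also an astroglial marker. The list of the ependymal surface was mixed, with 5 of 8 compared genes higher in Exp.2 and 3 (Cdh2, Celsr2 and Prom1) higher in Exp.1. When FPKM were compared as deposited, without making the totals equal, the median of all genes moved to 0.12 and that of the axoneme and IFT genes to -0.26, a shift that is nearly the same for every gene.

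Cytosolic ribosomal proteins and the respiratory chain stood on the other side. Of 87 ribosomal protein genes 68 were higher in Exp.1 (78.2%, against 44.4% of all genes), with a median log2 ratio of 0.29, and 11 were over 2-fold higher there (12.6%, against 6.00% of all genes). Of 81 respiratory chain genes 60 were higher in Exp.1 (74.1%), with a median of 0.30. Matrix and matricellular genes had a median of 0.36, with 38 of 50 higher in Exp.1. The astroglial markers leaned to Exp.1 too, with 11 of 16 higher there and a median of 0.28. Transcript length also moved with the ratio: the median over all genes was 0.04 for leading rows of 500 to 1000 bases and -0.10 for those of 4000 or more. Ribosomal protein and respiratory chain rows had median lengths of 751 and 714 bases, and axoneme and IFT rows 2247 bases. By length, the axoneme and IFT median was -0.29 against 0.05 for the other genes at 500 to 1000 bases (23 genes), -0.56 against -0.03 at 1000 to 2000 bases (43 genes), -0.44 against -0.09 at 2000 to 4000 bases (65 genes) and -0.47 against -0.10 at 4000 bases or more (28 genes). The single entry of these classes under 500 bases was at 0.37, against 0.08 for the others. It is Dynlt1-ps1, a processed pseudogene resting on 12 fragments in Exp.1 and 9 in Exp.2. Ribosomal protein and respiratory chain genes were not compared with other genes of like length. The mitochondrially encoded RNAs took 28.1% of the FPKM in Exp.1 and 38.4% in Exp.2. The parts of these RNAs, of transcript length and of cell makeup in the differences between the libraries were not tested.

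**Figure D5:**
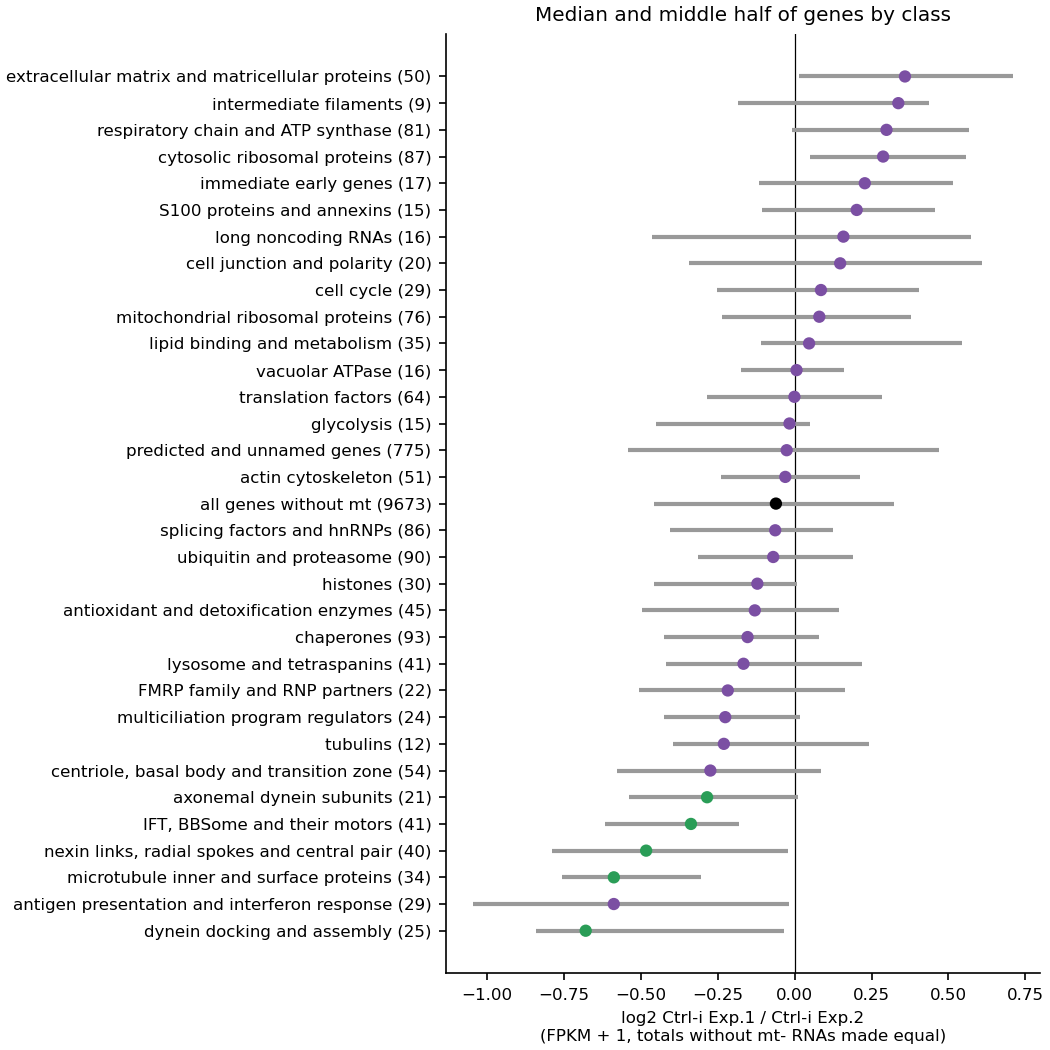
Median (point) and middle 50% of genes (line) of the log2 ratio of Ctrl-i Exp.1 over Ctrl-i Exp.2 by class, for classes with at least 8 compared genes, with the number of genes in parentheses. Ciliary classes (green) lie left of 0, with medians from -0.68 to -0.29, and all genes (black) at -0.06.

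Antigen presentation and interferon response genes also lay higher in Exp.2. They held 0.479% of the FPKM in Exp.1 and 0.742% in Exp.2, 23 of 29 were higher in Exp.2 (79.3%), and 8 were over 2-fold higher there (27.6%, against 6.97% of all genes), while 3 were over 2-fold higher in Exp.1 (10.3%). With 30 or more fragments in both libraries 7 of 15 were over 2-fold higher in Exp.2, against 64 of 3883 genes. Of all genes 55.6% were higher in Exp.2. Further classes above that share included the regulators of multiciliation (18 of 24, 75.0%), histones (22 of 30, 73.3%) and chaperones (61 of 93, 65.6%). The FMRP family and RNP partners (15 of 22, 68.2%), glycolysis (10 of 15, 66.7%) and antioxidant enzymes (29 of 45, 64.4%) were close to the chaperones. B2m, the light chain of class I molecules, had 798.75 FPKM in Exp.1 and 1040.04 FPKM in Exp.2. Isg15, a ubiquitin-like protein induced by interferon, had 70.8 and 133.05 FPKM, and Ifit3, of the same response, had 106.72 and 180.28 FPKM. Chosen after their values were seen, the class I chain H2-K1 had 39.79 FPKM in Exp.1 and 103.22 FPKM in Exp.2, and the regulator Irf7 had 5.63 and 29.92 FPKM from 10 and 57 fragments. Ifitm2 went against the group, with 119.18 FPKM in Exp.1 and 45.17 FPKM in Exp.2.

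Single genes with the widest gaps mostly had no fragment in 1 library. Among genes with a mean of at least 5 FPKM, Rpl19, a ribosomal protein, was listed at 0.01 FPKM in Exp.1 and 157.34 FPKM in Exp.2, where it rests on 120 fragments. Its single row is 1 of 3 annotated transcripts, and the 0 fragments of Exp.1 allow up to 5.48 FPKM by the Poisson interval. Ptbp1, a splicing repressor, had 0.01 and 24.52 FPKM, and Slc1a4, an amino acid transporter, 0.01 and 25.62 FPKM. In the other direction Mpc1, of the mitochondrial pyruvate carrier, had 48.11 FPKM in Exp.1 and 0.35 FPKM in Exp.2, and the integrin Itgav had 13.14 and 0.01 FPKM. Of the 20 widest gaps, 10 in each direction, 18 rounded to 0 fragments in the lower library, and each gene has 1 row here. Several annotated transcripts were present for 18 of the 20, as for 8425 of 9652 compared genes. Over 2-fold apart were 12.4% of these 8425 genes, against 16.7% of the 1227 genes with 1 annotated transcript. Over 8-fold apart, the order was reversed, with 43 of the 8425 (0.510%) against 3 of the 1227 (0.244%).

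Genes well covered in both libraries gave smaller gaps, in part because this leaves out genes low in only 1 library. Those below are named after their values were seen. Among genes with 100 or more fragments in both libraries, Kif1b, a kinesin of axonal transport, had 75.65 FPKM in Exp.1 and 16.11 FPKM in Exp.2 from 681 and 149 fragments. Ptn, a secreted growth factor, had 524.41 and 168.64 FPKM, Nes, a filament protein of neural progenitors, had 73.02 and 25.75 FPKM, and Cox6c, of respiratory complex IV, had 995.42 FPKM in Exp.1 and 301.53 FPKM in Exp.2. Higher in Exp.2, Nnat had 624.88 and 1280.16 FPKM, with counting intervals of 579 to 674 FPKM and 1217 to 1346 FPKM. Hspa4l and Dnaja4, chaperones of the heat shock families, had 26.89 and 37.51 FPKM in Exp.1, with 53.81 and 71.52 FPKM in Exp.2. The complement protein C3 had 98.35 FPKM in Exp.1 and 179.33 FPKM in Exp.2.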

How the data were processed

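Poly(A) RNA was sequenced as paired reads from a kit that keeps strand. Strand use in counting is not stated. The deposited FPKM were made by the authors, who name Cuffdiff. HISAT2 2.1.0, featureCounts 1.5.3 and GRCm38 stand in the submitters' processing notes. The deposited length column (other) was not used. Row lengths and coordinates come from GENCODE M21 for 12483 of 12515 rows, and 25 symbols turned into dates were restored. Symbols starting mt- were left out of shares. Fragments are FPKM times transcript length over the step of 1 fragment, which was found from values up to 20 fragments on single annotated transcripts of at least 1000 bases. Ratios used a pseudocount of 1 FPKM. There are 2 libraries of 1 group, so no test was run. Intervals are exact Poisson at 95% and cover counting error only.

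Named were the 30 genes of highest mean share, mt- symbols, up to 6 members a class by mean FPKM, markers, genes of the study's compartment markers, and the 10 largest ratios each way at a mean of at least 5 FPKM; others were chosen after their values were seen. Members and lists were chosen with earlier results of these data known. Classes are exclusive. The ratio was run on simulated counts with Poisson noise only, where 200 genes raised 4-fold in 1 library all passed 2-fold. The raised genes were not scarce, so this is no check of the ratio for scarce genes. Python 3.11.15, pandas 2.3.3 and scipy 1.17.1 were used.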

Additional observations from a re-analysis of the deposited data

How the results depend on the processing

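Class shares were recomputed in 8 ways. With nothing left out, metallothioneins held 4.41%, cytosolic ribosomal proteins 3.90%, the respiratory chain 2.48% and axoneme and IFT genes 1.26%, the first 10 genes held 43.7%, and 37.5 genes on average reached 50%. By fragments, an alternative chosen after seeing the data, these were 1.97%, 2.50%, 1.59%, 1.75% (within the spread of the libraries), 10.2% and 681.5 genes, so the leading place of the metallothioneins rests on counting per length. Without Dbi, the metallothioneins and the ferritins, ribosomal proteins held 6.64% and the first 10 genes 10.1%, and without Gm28438, Gm13340, CT010467.1 and AC153368.1 the first 10 held 16.4%. With the highest row of each symbol they held 19.2%. Leaving out 1 of the 2 libraries returns the values of the other, so it adds no check beyond the libraries themselves. These values were 6.06% and 7.06% for metallothioneins, 5.22% and 6.39% for ribosomal proteins, and 3.26% and 4.11% for the respiratory chain. For axoneme and IFT genes they were 1.62% and 2.21%, and for the first 10 genes 17.8% and 18.6%. The genes that reach 50% numbered 296 and 336. The count over 2-fold apart was 404 with a pseudocount of 5 FPKM, 732 with a mean of at least 5 FPKM, 2123 over single rows, and 383 with 10 or more fragments in both libraries (chosen after seeing the data), against 1254, and r lay between 0.873 and 0.951. The ribosomal, respiratory and axonemal medians kept their sign in all 8 other settings. No paired analysis was possible because only 1 group was described and no test was run.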

Other observations

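Further classes were close in both libraries. Lysosomal genes and tetraspanins held 1.72% of the FPKM in Exp.1 and 1.76% in Exp.2, led by Laptm4a, a lysosomal membrane protein, with 844.06 and 866.01 FPKM, and Cd63 and Cd9, tetraspanins also found on extracellular vesicles, with 843.97 and 588.45 FPKM in Exp.1, with 546.61 and 479.42 FPKM in Exp.2. Genes of ubiquitin and the proteasome held 1.52% in Exp.1 and 1.52% in Exp.2, and antioxidant enzymes 1.45% and 1.42%, of which Prdx6, a peroxidase, had 1380.04 and 1209.33 FPKM. The vacuolar ATPase, a proton pump, held 0.399% and 0.393% in 16 genes.

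Cell cycle genes held 0.124% in Exp.1 and 0.115% in Exp.2, led by Stmn1, a tubulin-binding protein, with 127.1 and 83.73 FPKM. Immediate early genes held 0.0431% and 0.0345%, with Fos at 40.2 FPKM in Exp.1 and 27.13 FPKM in Exp.2. Among S100 proteins and annexins, which bind calcium, S100a6 had 2022.48 and 1384.36 FPKM and Anxa5 had 490.3 and 644.81 FPKM. The adhesion and Wnt signalling protein gene Ctnnb1 had 971.08 FPKM in Exp.1 and 556.95 FPKM in Exp.2 and made up 54.1% of the junction and polarity class.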
